A study of Homo sapiens with 18 samples.

Results

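VCP, NPLOC4, FAF2, NFE2L1, UBB, SQSTM1, STUB1, ZFAND2A and ZFAND5, 9 genes that handle ubiquitinated proteins, were followed across all groups of the series. They were taken as a named list, chosen because NPLOC4 (NPL4) is a reported target of the disulfiram-copper complex. The rule that defines the list uses no measured value, but the list was chosen with earlier results of these data known. All probes assigned to them by RefSeq accession or symbol were used, which gave 11 probes, 1 for each gene except ZFAND5, which has 3. The 11 probes were well above background on all 18 arrays, and the 9 genes were among 15852 genes tested. The samples were EpCAM+ cells sorted from the human hepatocellular carcinoma (HCC) lines Huh1 and Huh7 after 48 hours with disulfiram (DSF, 0.1 µM), with 5-fluorouracil (5-FU, 1 µM) or without either drug, with 3 arrays in each of the 6 groups. EpCAM is a surface protein used to mark tumor-initiating HCC cells, and the labels list the sorting after the treatment. The methods list DSF together with CuCl2 and do not say what the controls received, so DSF and copper cannot be told apart here. No genetic change was made in either line.

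VCP is an ATPase that pulls ubiquitinated proteins out of membranes and complexes so that the proteasome can degrade them. NPLOC4 and UFD1 form the adaptor that hands it ubiquitin chains, and FAF2 brings it to the endoplasmic reticulum (ER) and to lipid droplets. When degradation stalls, cells are known to raise ubiquitin carriers such as SQSTM1 and small zinc finger proteins of the ZFAND family, and NFE2L1, a transcription factor that VCP releases from the ER membrane, is known to turn on proteasome genes.

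Levels are given on a normalized log2 scale, the log2 intensity of a probe minus the log2 75th percentile of all probes on the same array. A level of 0 is therefore the 75th percentile, a difference of 1 is a doubling, and levels of different probes cannot be set against each other. The 8 liver markers checked, such as ALB and AFP, and EPCAM were well above background on all 18 arrays. The leukocyte, fibroblast and endothelial markers checked ranged from 0 arrays (KDR) and 1 array (COL3A1) to all 18 (among them PTPRC, CD14, PECAM1 and CDH5), these 4 at normalized log2 levels between -5.02 and 1, and their part in the results was not tested. Between 59.9% and 71.1% of probes were well above background per array. The arrays lay on 3 slides. Huh7 DSF replicates 2 and 3 lay on a slide of their own, scanned on another day, and Huh1 DSF replicate 3 lay with the Huh7 arrays. Values without or within slides stand beside some of the results they touch. In sorted populations, fewer cells of a kind and less RNA per cell cannot be told apart.

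DSF and the 9 genes. In Huh1 after DSF, SQSTM1, ZFAND2A and NFE2L1 were higher than in control, at 1.54-fold, 1.6-fold and 1.51-fold, and VCP, NPLOC4 and STUB1 were lower by small amounts. In Huh7, 7 of the 9 genes were higher, led by SQSTM1 at 3.41-fold and ZFAND2A at 3.16-fold, and NFE2L1 was lower. With each gene taken by its brightest probe, SQSTM1 and ZFAND2A rose in both lines and 0 fell in both, where 11.7% of all tested genes rose in both lines and 10.4% fell in both. The other 2 ZFAND5 probes also rose in both lines. In Huh1, 6 of 9 genes passed the test (limma, Benjamini-Hochberg adjusted p under 0.05 over all probes), 3 higher and 3 lower, against 52.7% of all tested genes (26.4% higher, 26.3% lower). In Huh7, 8 of 9 passed, 7 higher and 1 lower, against 53.2% of all tested genes (29.1% higher, 24.1% lower). The 3 lower genes in Huh1 became 1 without control replicate 1 or 2 or any 1 of the DSF arrays, and 2 without control replicate 3. The 7 higher genes in Huh7 became 4 without control replicate 1 (4 to 7 over all omissions), 4 without slide 3, 4 under quantile normalization, 3 with median scaling and 2 with spike-in scaling. Control and DSF arrays did not overlap for 8 of 9 genes in Huh1 (67.9% of all genes) and for 9 of 9 in Huh7 (69.4%). The median log2 difference of the 9 genes was 0.18 in Huh1 and 0.26 in Huh7, beside -0.021 and 0.038 over all tested genes. Since most genes passed in these comparisons, the counts say little about the 9 genes in particular, and the size of each change is given gene by gene.

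**Figure D1:**
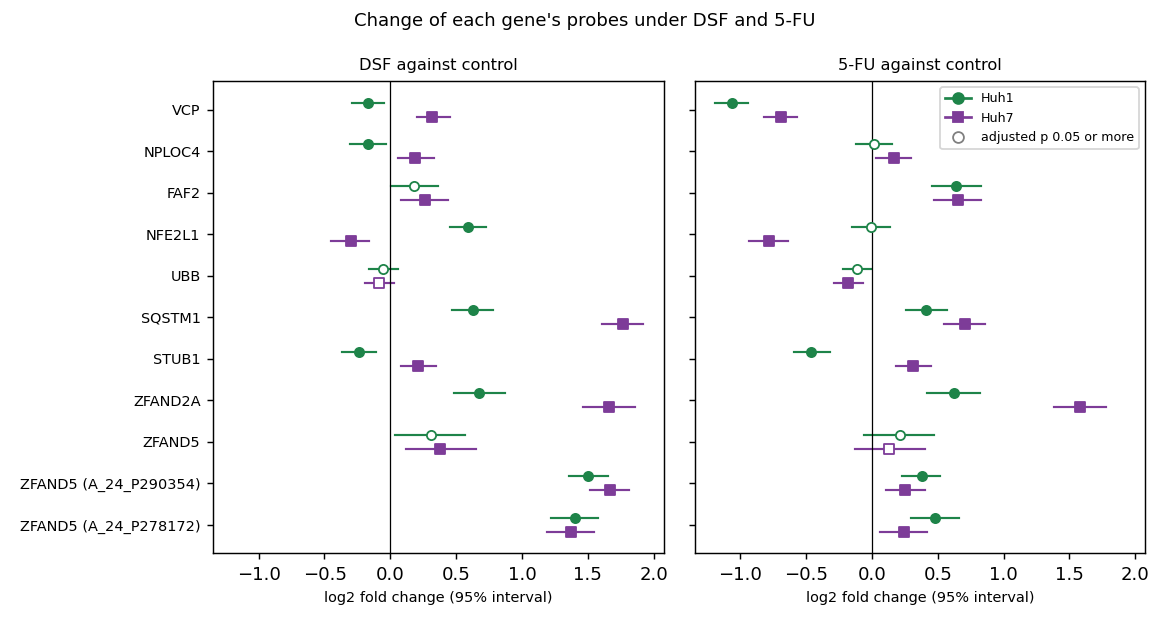
Log2 fold change against control (x axis, with 95% interval) of each of the 11 probes under DSF (left) and 5-FU (right), in Huh1 (circles) and Huh7 (squares), filled where the adjusted p was under 0.05. SQSTM1, ZFAND2A and the last 2 ZFAND5 probes lie furthest to the right under DSF, and under 5-FU VCP lies furthest to the left in Huh1 and NFE2L1 in Huh7.

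The segregase and its adaptors. VCP, the ATPase itself, stood at 6.31, 6.25 and 6.18 (normalized log2 level) on the 3 Huh1 control arrays, at 6.09, 6.05 and 6.09 after DSF, and at 5.13, 5.22 and 5.2 after 5-FU. In Huh7 it stood at 6.48, 6.48 and 6.47 in control, at 6.81, 6.79 and 6.79 after DSF, and at 5.79, 5.88 and 5.67 after 5-FU. The 5-FU arrays were the lowest in each line and no 2 groups of a line overlapped. DSF changed VCP by -0.17 ± 0.058 (log2 difference ± SE, adjusted p = 0.0268) in Huh1 and by 0.32 ± 0.058 (adjusted p = 0.000422) in Huh7, so the 2 lines moved apart by 0.49 ± 0.082 (adjusted p = 0.00031). The small fall in Huh1 missed the threshold when any 1 of 5 arrays was left out, with differences of -0.14 without control replicate 1, -0.17 without control replicate 2, and -0.18, -0.16 and -0.18 without DSF replicates 1, 2 and 3, and within slide 1 (-0.18, adjusted p = 0.0836). The rise in Huh7 was 0.33 within slide 2, where DSF had 1 array taken to vary like the other groups (adjusted p = 0.0744). After 5-FU, VCP fell by 1.06 ± 0.058 (adjusted p = 1.81e-08) in Huh1, 2.09-fold down, and by 0.69 ± 0.058 (adjusted p = 1.58e-07) in Huh7, 1.62-fold down. Only 3.12% of the tested genes had a lower value than VCP for 5-FU in Huh1, and 15.5% in Huh7.

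The 5-FU values of all genes are relative to the bulk of the probes. On 5-FU arrays the 75th percentile stood 2.02 to 2.45 below 7 spike-in probes on the log2 scale, and on the other arrays 2.94 to 3.48 below. Scaling to the spike-ins instead moved the median of all probes by 0.83 in Huh1 and 0.98 in Huh7 for 5-FU, and by 0.13 and -0.18 for DSF. Under that scaling VCP changed by -0.24 in Huh1 (adjusted p = 0.111) and by 0.29 in Huh7 (adjusted p = 0.0527) after 5-FU, so the direction in Huh7 turned, while its place among the genes, which a shift common to all probes cannot alter, stayed the same.

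NPLOC4, the ubiquitin-receiving adaptor of VCP, varied least of the 9 genes, with a range of 0.42 over the 6 group means. Its levels were 4.53, 4.56 and 4.58 in Huh1 control, 4.39, 4.39 and 4.38 after DSF, and 4.43, 4.62 and 4.67 after 5-FU. In Huh7 they were 4.14, 4.14 and 4.19 in control, 4.3, 4.35 and 4.39 after DSF, and 4.37, 4.36 and 4.24 after 5-FU. The DSF arrays lay below control in Huh1 and above control in Huh7, without overlap in either, while 5-FU and control overlapped in Huh1. DSF changed NPLOC4 by -0.17 ± 0.063 (adjusted p = 0.0408) in Huh1 and by 0.19 ± 0.063 (adjusted p = 0.0233) in Huh7, about 1.1-fold either way, and the effects differed between the lines by 0.36 ± 0.089 (adjusted p = 0.00541). Neither DSF call was firm. In Huh1 it was lost when any 1 of the 6 arrays was left out (-0.18 to -0.16), and in Huh7 without control replicate 1 (0.18), control replicate 2 (0.18), DSF replicate 2 (0.19) or DSF replicate 3 (0.17), and with slide 3 left out (0.14, adjusted p = 0.288, with 1 DSF array left). The 95% interval of the difference was -0.31 to -0.035 in Huh1 and 0.055 to 0.33 in Huh7. After 5-FU the difference was 0.017 in Huh1 (interval -0.12 to 0.15) and 0.17 in Huh7 (adjusted p = 0.0346), the latter lost without Huh7 control replicate 1 (0.16), control replicate 2 (0.16), 5-FU replicate 1 (0.14) or 5-FU replicate 2 (0.15).

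FAF2, the membrane-bound VCP recruiter, rose after 5-FU in both lines. It stood at 1.68, 1.78 and 1.66 in Huh1 control, 1.88, 1.9 and 1.89 after DSF, and 2.15, 2.45 and 2.45 after 5-FU, and in Huh7 at 2.06, 2.13 and 2.1, then 2.38, 2.34 and 2.36, then 2.92, 2.66 and 2.66. In each line control was lowest, DSF in between and 5-FU highest, with no overlap. The 5-FU differences were 0.64 ± 0.084 (adjusted p = 2.61e-05) in Huh1 and 0.65 ± 0.084 (adjusted p = 1.26e-05) in Huh7, 1.56-fold and 1.57-fold, and larger still with spike-in scaling (1.47 and 1.63). DSF gave 0.18 ± 0.084 (adjusted p = 0.0948) in Huh1 and 0.26 ± 0.084 (adjusted p = 0.0208) in Huh7. The Huh7 DSF call was lost without control replicate 1 (0.24), without DSF replicate 3 (0.26) and with slide 3 left out (0.28, adjusted p = 0.133, with 1 DSF array left). VCP and FAF2 thus moved in opposite directions after 5-FU on the 75th percentile scale.

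**Figure D2:**
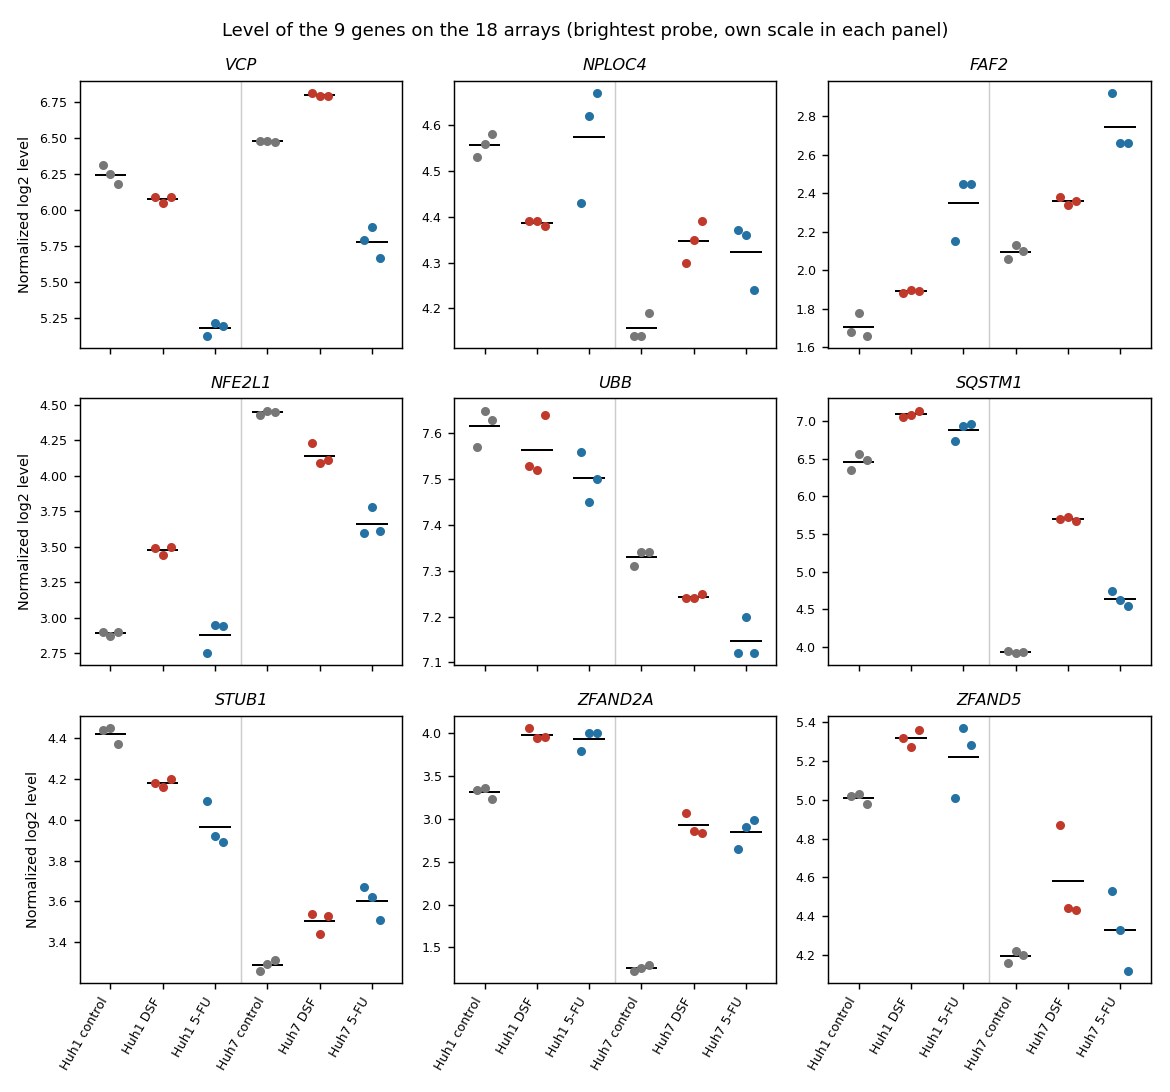
Normalized log2 level of each of the 9 genes (y axis, own scale in each panel) on the 18 arrays, with 3 points per group for the arrays and a line at their mean. SQSTM1 and ZFAND2A separate Huh1 from Huh7 and rise under both drugs, while VCP is lowest under 5-FU in each line.

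The factor that VCP releases. NFE2L1 stood at 2.9, 2.87 and 2.9 in Huh1 control and at 3.49, 3.44 and 3.5 after DSF, a difference of 0.59 ± 0.067 (adjusted p = 7.31e-06). In Huh7 it stood at 4.43, 4.46 and 4.45 in control and at 4.23, 4.09 and 4.11 after DSF, a difference of -0.3 ± 0.067 (adjusted p = 0.00203). DSF arrays were all above control in Huh1 and all below control in Huh7, and the effects differed by -0.89 ± 0.095 (adjusted p = 7.28e-06). With slide 3 left out, which leaves 1 Huh7 DSF array taken to vary like the other groups, the fall in Huh7 was -0.22 (adjusted p = 0.11). After 5-FU the gene stood at 2.75, 2.95 and 2.94 in Huh1, overlapping control, and at 3.6, 3.78 and 3.61 in Huh7, a fall of 0.78 ± 0.067 (adjusted p = 2.05e-07) that turned to 0.2 (adjusted p = 0.197) with spike-in scaling. Without drug, NFE2L1 was 2.95-fold higher in Huh7 than in Huh1.

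Ubiquitin. UBB, which codes for a chain of ubiquitin repeats, had levels between 7.52 and 7.65 on the Huh1 control and DSF arrays, which overlapped, and between 7.45 and 7.56 after 5-FU. In Huh7 it had 7.31 to 7.34 in control, 7.24 to 7.25 after DSF and 7.12 to 7.2 after 5-FU. DSF gave differences of -0.052 (95% interval -0.16 to 0.059) in Huh1 and -0.084 (-0.19 to 0.026) in Huh7, neither past the threshold. Other scalings brought a fall past it in 1 line each, of -0.22 (adjusted p = 0.0179) in Huh1 under median scaling and of -0.22 (adjusted p = 0.00235) in Huh7 under quantile normalization. The fall of 0.18 ± 0.051 (adjusted p = 0.00783) after 5-FU in Huh7 became a rise of 0.32 (adjusted p = 7.18e-05) under quantile normalization and of 0.8 under spike-in scaling, and a direction cannot be given. Its repeats are near-identical to those of ubiquitin pseudogenes, so this probe is uncertain as a measure of UBB alone.

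The ubiquitin receptor. SQSTM1 binds ubiquitin chains and carries them to autophagosomes, and it also holds KEAP1. In Huh1 it stood at 6.35, 6.56 and 6.48 in control, 7.06, 7.08 and 7.14 after DSF, and 6.74, 6.94 and 6.96 after 5-FU. In Huh7 it stood at 3.95, 3.92 and 3.93 in control, 5.7, 5.73 and 5.67 after DSF, and 4.74, 4.63 and 4.55 after 5-FU. In both lines all DSF arrays were above all 5-FU arrays and those above all control arrays. DSF raised SQSTM1 by 0.63 ± 0.072 (adjusted p = 8.31e-06) in Huh1 and by 1.77 ± 0.072 (adjusted p = 4.77e-10) in Huh7, where 98% of tested genes had a lower difference (place 312 of 15852). The rise was larger in Huh7 by 1.14 ± 0.1 (adjusted p = 1.74e-06), 2.21-fold, while the Huh7 control level was 5.79-fold below that of Huh1. Even after DSF, Huh7 at 5.7 ± 0.033 (mean ± SD, n = 3) remained below Huh1 control at 6.46 ± 0.1 (mean ± SD, n = 3). The DSF rise in Huh7 was 1.77 on slide 2 alone and 1.59 with spike-in scaling. 5-FU raised SQSTM1 by 0.41 ± 0.072 (adjusted p = 0.000304) in Huh1 and by 0.71 ± 0.072 (adjusted p = 1.15e-06) in Huh7, and the 2 differed by 0.3 ± 0.1 (adjusted p = 0.0342), a call lost without Huh1 control replicate 2 (0.25) or 3 (0.29), Huh1 5-FU replicate 1 (0.23), Huh7 control replicate 1 (0.31), 2 (0.29) or 3 (0.3), or Huh7 5-FU replicate 1 (0.25) or 2 (0.3). Under quantile normalization this difference between the lines was only 0.021 (adjusted p = 0.898).

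The chaperone ligase. STUB1 ubiquitinates clients of the heat shock chaperones. It stood at 4.44, 4.45 and 4.37 in Huh1 control, 4.18, 4.16 and 4.2 after DSF, and 4.09, 3.92 and 3.89 after 5-FU. In Huh7 it stood at 3.26, 3.29 and 3.31 in control, 3.54, 3.44 and 3.53 after DSF, and 3.67, 3.62 and 3.51 after 5-FU. Both drugs lay below control in Huh1 and above control in Huh7, with no overlap between drug and control. DSF gave -0.24 ± 0.062 (adjusted p = 0.0057) and 0.21 ± 0.062 (adjusted p = 0.0113), both lost with spike-in scaling (-0.11, adjusted p = 0.623, and 0.037, adjusted p = 0.869) and the second also under quantile normalization (0.1, adjusted p = 0.164). 5-FU gave -0.46 ± 0.062 (adjusted p = 3.65e-05) and 0.31 ± 0.062 (adjusted p = 0.000542). The line difference was 0.45 ± 0.087 (adjusted p = 0.000976) for DSF and 0.77 ± 0.087 (adjusted p = 1.48e-05) for 5-FU. With spike-in scaling the Huh1 change under 5-FU turned to 0.37 (adjusted p = 0.0249), and with slide 3 left out the Huh7 DSF change, with 1 DSF array, was 0.25 (adjusted p = 0.0512). Because the drugs share their control arrays, their changes are set side by side only.

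The zinc finger proteins. ZFAND2A, first known as an arsenite-inducible protein that attaches to the proteasome, rose as much under 5-FU as under DSF. In Huh1 its levels were 3.34, 3.36 and 3.23 in control, 4.06, 3.94 and 3.95 after DSF, and 3.79, 4 and 4 after 5-FU. In Huh7 they were 1.23, 1.26 and 1.3 in control, 3.07, 2.86 and 2.84 after DSF, and 2.65, 2.9 and 2.99 after 5-FU. Every drug array was above every control array of its line, and the drugs overlapped each other. DSF raised it by 0.67 ± 0.092 (adjusted p = 3.73e-05) in Huh1 and by 1.66 ± 0.092 (adjusted p = 1.01e-08) in Huh7, and 5-FU by 0.62 ± 0.092 (adjusted p = 7.61e-05) and by 1.58 ± 0.092 (adjusted p = 4.94e-09). Both rises were larger in Huh7, by 0.98 ± 0.13 (adjusted p = 4.75e-05) for DSF and 0.96 ± 0.13 (adjusted p = 6.18e-05) for 5-FU. DSF minus 5-FU was 0.056 (95% interval -0.14 to 0.25) in Huh1 and 0.08 (-0.12 to 0.28) in Huh7. With spike-in scaling the 5-FU rise exceeded that of DSF, by 0.64 in Huh1 and 1.08 in Huh7, so the equality holds relative to the bulk of probes only. Without drug Huh7 stood 4.12-fold below Huh1.

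ZFAND5 codes for a ubiquitin-binding zinc finger protein that activates the proteasome, and its 3 probes, all listed for the same RefSeq transcript, disagreed in size. The brightest, A_23_P71752, stood at 5.02, 5.03 and 4.98 in Huh1 control and at 5.32, 5.27 and 5.36 after DSF, and in Huh7 at 4.16, 4.22 and 4.2 and then at 4.87, 4.44 and 4.43. Its DSF differences were 0.31 ± 0.12 (adjusted p = 0.0602) in Huh1 and 0.38 ± 0.12 (adjusted p = 0.0207) in Huh7, the latter lost without DSF replicate 1 (0.24) or control replicate 1 (0.37), and with slide 3 left out, replicate 1 alone, the highest of the 3 DSF arrays, gave 0.68. Probe A_24_P290354 stood at 3.39, 3.35 and 3.37 in Huh1 control and 4.88, 4.88 and 4.85 after DSF, and in Huh7 at 2.21, 2.2 and 2.25 and then at 3.88, 3.9 and 3.88. On this probe DSF gave 1.5 ± 0.068 (adjusted p = 9.27e-10) in Huh1 and 1.67 ± 0.068 (adjusted p = 4.77e-10) in Huh7, 2.83-fold and 3.18-fold. The dimmest, A_24_P278172, gave 1.4 ± 0.084 (adjusted p = 1.92e-08) and 1.37 ± 0.084 (adjusted p = 2.6e-08), 2.64-fold and 2.59-fold. On each of the 3 probes all DSF arrays were above all control arrays, and the DSF effects on the 2 dimmer probes did not pass a test of a difference between the lines (0.17 with interval -0.04 to 0.37, and -0.028 with interval -0.28 to 0.23). With the mean of the 3 probes, ZFAND5 rose by 1.07 (adjusted p = 1.45e-07) in Huh1 and by 1.14 in Huh7. After 5-FU the 2 dimmer probes rose by 0.38 and 0.48 in Huh1 and by 0.25 and 0.24 in Huh7, all past the threshold, and the brightest gave 0.21 and 0.13, neither past it. The dimmest probe's 5-FU call in Huh7 was lost without control replicate 2 (0.21), control replicate 3 (0.24) or 5-FU replicate 1 (0.17). Which of the probes measures the transcript best cannot be read from these files.

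**Figure D3:**
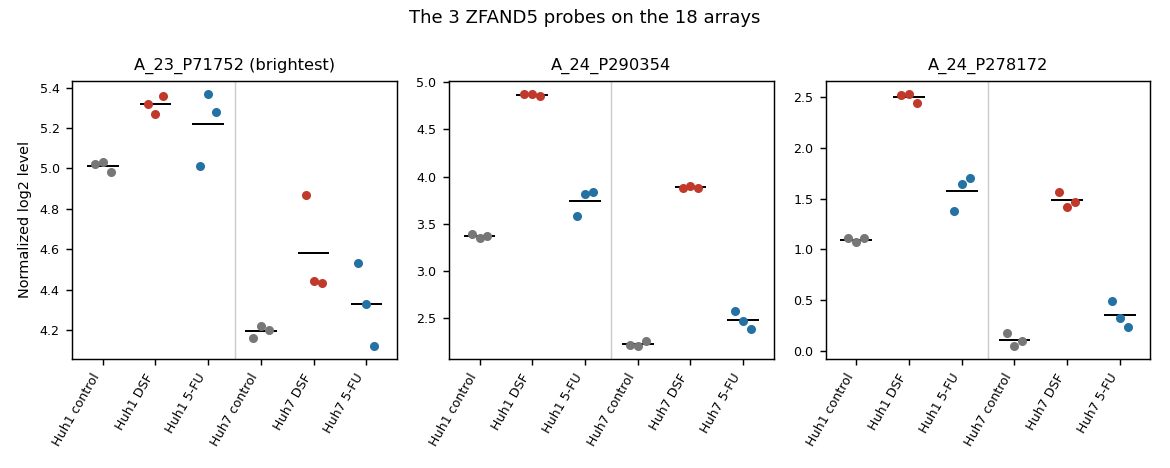
Normalized log2 level (y axis, own scale in each panel) of the 3 ZFAND5 probes on the 18 arrays, with a line at each group mean. DSF arrays lie above control in all 3 panels, by 0.31 and 0.38 on the brightest probe and by 1.37 to 1.67 on the others.

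Promoters of the genes that rose together. The windows of ZFAND2A, SQSTM1 (the most upstream and the most downstream of its 3 starts) and ZFAND5 (the most upstream of 3), whose probes rose most under DSF, are shown with that of VCP, which did not rise with them in Huh1. Each runs from 250 bases before to 50 bases after a RefSeq transcription start on GRCh38.p14, 5′ to 3′ on the gene's strand. Capitals mark matches to the antioxidant response element core TGACNNNGC or the metal response element core TGCACNC or TGCGCNC on either strand. The windows lie at chr7:1160147-1160446 (minus strand), chr5:179806143-179806442 and chr5:179820655-179820954 (plus), chr9:72365159-72365458 (minus) and chr9:35072576-35072875 (minus), in that order. The ZFAND5 window shown is the only one of its 3 that holds a match. The SQSTM1 window not shown holds 1 metal response element core.
ZFAND2A: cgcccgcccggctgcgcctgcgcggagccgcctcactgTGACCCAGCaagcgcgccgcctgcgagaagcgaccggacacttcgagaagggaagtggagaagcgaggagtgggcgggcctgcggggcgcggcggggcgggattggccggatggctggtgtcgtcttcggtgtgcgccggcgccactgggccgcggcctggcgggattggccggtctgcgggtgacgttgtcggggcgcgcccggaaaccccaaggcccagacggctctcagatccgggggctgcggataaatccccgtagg
SQSTM1 (upstream start): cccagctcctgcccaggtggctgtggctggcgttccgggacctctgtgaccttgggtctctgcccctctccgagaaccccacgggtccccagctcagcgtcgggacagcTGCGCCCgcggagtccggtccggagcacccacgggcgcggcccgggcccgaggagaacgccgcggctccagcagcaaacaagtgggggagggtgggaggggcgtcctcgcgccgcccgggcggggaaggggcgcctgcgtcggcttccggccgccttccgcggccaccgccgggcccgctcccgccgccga
SQSTM1 (downstream start): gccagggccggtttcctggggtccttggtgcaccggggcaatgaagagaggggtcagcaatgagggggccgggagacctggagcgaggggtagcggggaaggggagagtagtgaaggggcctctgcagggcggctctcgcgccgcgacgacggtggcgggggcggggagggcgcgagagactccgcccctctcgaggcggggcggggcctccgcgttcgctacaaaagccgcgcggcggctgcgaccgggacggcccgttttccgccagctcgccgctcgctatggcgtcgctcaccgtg
ZFAND5: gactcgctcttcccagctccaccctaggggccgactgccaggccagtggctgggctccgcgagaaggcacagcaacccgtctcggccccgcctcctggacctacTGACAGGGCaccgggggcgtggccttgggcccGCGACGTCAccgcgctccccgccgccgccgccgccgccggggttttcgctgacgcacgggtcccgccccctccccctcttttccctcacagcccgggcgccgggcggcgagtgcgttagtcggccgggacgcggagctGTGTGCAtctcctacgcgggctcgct
VCP: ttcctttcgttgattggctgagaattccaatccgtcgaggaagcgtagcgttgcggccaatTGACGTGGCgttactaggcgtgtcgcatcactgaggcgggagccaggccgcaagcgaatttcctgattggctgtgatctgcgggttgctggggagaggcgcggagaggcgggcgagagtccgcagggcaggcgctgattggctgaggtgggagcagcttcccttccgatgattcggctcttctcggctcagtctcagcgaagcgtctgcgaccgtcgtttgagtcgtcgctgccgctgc

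RefSeq windows were given for 8 of the 9 genes, 15 windows in all, some of which overlap within a gene. The ARE core was in 6 of the 15 windows, of VCP, FAF2, UBB, ZFAND2A and ZFAND5 (5 of 8 genes), beside 13.3% of all 35116 windows and 16.1% of all genes with a window. The overlapping UBB windows hold the same site, which is counted in each. The 8 genes had more windows per gene than all genes (35116 windows for 27305 genes), so the shares by gene are not on a like footing. The metal response element core was in 5 of the 15 windows, of FAF2, UBB, SQSTM1 and ZFAND5 (4 of 8 genes), beside 29.6% of all windows and 33.4% of all genes with a window, so its share of windows was near that of all. The heat shock element core, searched only as GAANNTTC, was in 0 of the 15 windows and in 6.77% of all windows. Other arrangements of its units were not searched, so this count does not show that the windows lack heat shock elements. VCP and ZFAND2A each held 1 ARE core. These matches describe letters in short windows and mark no binding site.

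DSF against 5-FU. The drugs were given at different doses, 0.1 and 1 µM, and were compared directly in each line. VCP was higher after DSF than after 5-FU by 0.89 ± 0.058 (adjusted p = 3.52e-08) in Huh1 and by 1.02 ± 0.058 (adjusted p = 4.46e-09) in Huh7. NFE2L1 was higher by 0.59 ± 0.067 and 0.48 ± 0.067, and SQSTM1 by 0.21 ± 0.072 (adjusted p = 0.0233) and 1.06 ± 0.072. FAF2 was lower after DSF, by -0.46 ± 0.084 and -0.39 ± 0.084, and the Huh7 value was -0.37 within slide 2, which holds 1 Huh7 DSF array. Of all tested genes 18% were higher and 15.4% lower in both lines. Of the 9 genes, 6 passed in Huh1, 4 higher and 2 lower (all genes 55.8%, with 30.5% higher and 25.3% lower), and 4 passed in Huh7, 3 higher and 1 lower (all genes 65.2%, with 34.5% higher and 30.7% lower), with no overlap between the drugs for 6 (69.9% of all genes) and 5 (67.4%). The other calls in Huh1 were STUB1 at 0.21 ± 0.062 (adjusted p = 0.0102), lost without 5-FU replicate 3 (0.18), and NPLOC4 at -0.19 ± 0.063 (adjusted p = 0.0235), lost when 1 of 5 of the 6 arrays was left out (-0.26 to -0.14 over the 6). The small SQSTM1 difference in Huh1 was 0.15 without 5-FU replicate 1, 0.19 without DSF replicate 3 and 0.19 within slide 1, none past the threshold. It turned to -0.093 (adjusted p = 0.333) under quantile normalization. With spike-in scaling VCP still ranked above most genes but its difference was -0.14 (adjusted p = 0.31) in Huh7, NFE2L1 gave -0.098 and -0.68, and SQSTM1 -0.48 and -0.1. ZFAND5 was counted by its brightest probe, at 0.098 in Huh1 and 0.25 in Huh7, neither past the threshold. Its other 2 probes were higher after DSF in both lines, without overlap. In Huh1 and Huh7, A_24_P290354 gave 1.13 ± 0.068 and 1.42 ± 0.068, and A_24_P278172 gave 0.92 ± 0.084 and 1.13 ± 0.084. With spike-in scaling A_24_P278172 gave 0.23 and -0.028, and A_24_P290354 gave 0.26 in Huh7. The higher values after DSF thus hold relative to the bulk of the probes.

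5-FU and the 9 genes in count. After 5-FU, 5 of 9 genes passed in Huh1, 3 higher and 2 lower (all genes 54.9%, with 25.9% higher and 29.1% lower), and 8 of 9 in Huh7, 5 higher and 3 lower (all genes 63.5%, with 32.5% higher and 31% lower). Control and 5-FU arrays did not overlap for 6 genes in Huh1 (62.6% of all genes) and 8 in Huh7 (71.9%). FAF2, SQSTM1 and ZFAND2A rose and VCP fell in both lines, beside 16% and 17.3% of all genes. The median difference of the 9 genes was 0.017 in Huh1 and 0.17 in Huh7, beside -0.025 and -0.0054 over all tested genes.

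The lines compared. Without drug all 9 genes differed between the lines, 3 higher and 6 lower in Huh7, as did 77.9% of all tested genes (39.3% higher, 38.6% lower), and control arrays of the lines did not overlap for 9 of 9 (84.7% of all genes). SQSTM1, ZFAND2A, STUB1 and ZFAND5 were lower in Huh7, by -2.53, -2.04, -1.13 and -0.82 on the log2 scale, and NFE2L1 was higher by 1.56. The controls of the lines lay on different slides, which were bridged by the DSF arrays only. With slide as a block VCP (0.21, adjusted p = 0.11) and FAF2 (0.4, adjusted p = 0.0534) no longer differed past the threshold. The DSF effect differed between the lines for 6 of 9 genes (46.3% of all genes, 24.3% more positive in Huh7 and 21.9% more negative), 5 more positive in Huh7 and 1 more negative, and the 5-FU effect for 5 of 9 (43.6%, with 23.7% and 19.9%), 4 more positive and 1 more negative.

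Order of the groups. From highest to lowest, SQSTM1 ran Huh1 DSF, Huh1 5-FU, Huh1 control, Huh7 DSF, Huh7 5-FU and Huh7 control, and each neighbour differed from the next past the threshold. VCP ran Huh7 DSF, Huh7 control, Huh1 control, Huh1 DSF, Huh7 5-FU and Huh1 5-FU, again with a difference between all neighbours. ZFAND2A ran as SQSTM1 did, but its drugs did not differ within a line (adjusted p = 0.647 and 0.472). NFE2L1 ran Huh7 control, DSF, 5-FU, then Huh1 DSF, control and 5-FU, and the last 2 did not differ. For NPLOC4, Huh1 5-FU and control did not differ, nor did Huh1 DSF, Huh7 DSF and Huh7 5-FU as neighbours. FAF2 had Huh7 DSF beside Huh1 5-FU and Huh1 DSF beside Huh1 control without a difference. STUB1 had all 3 Huh1 groups above all 3 Huh7 groups, and only Huh7 5-FU and Huh7 DSF did not differ as neighbours. UBB had a difference between neighbours only where the Huh1 groups met the Huh7 groups, and the same held for the brightest ZFAND5 probe.

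Over the 18 arrays SQSTM1 ran most closely with ZFAND5 (Pearson r = 0.95, brightest probe) and ZFAND2A (r = 0.93) among the 9 genes, and NPLOC4 ran against NFE2L1 (r = -0.87). Much of this is the gap between the lines, which all points share, so the values only describe these arrays. Among all genes the closest to SQSTM1 were KLHL21 (r = 0.996) and BATF (r = 0.995), to VCP PDIA3 (r = 0.976), an ER disulfide isomerase, and G6PC3 (r = 0.976), and to NFE2L1 TNNT1 and ERP44 (r = 0.987 each). The pairs for the other genes were POGK and RANBP3 for NPLOC4 (r = 0.944 and 0.931), ZNF689 and VSIR for FAF2 (0.977 and 0.969), CHMP2A and NAB2 for UBB (0.985 and 0.983), SPOUT1 and CCNYL1 for STUB1 (0.991 and 0.982), KLRC3 and KLRC1 for ZFAND2A (0.994 and 0.992) and SLK and SGTA for ZFAND5 (0.978 and 0.975), each over 18 arrays.

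Other genes of the pathway under DSF. Of 22 other VCP adaptors and cofactors tested, DSF raised 7 and lowered 3 in Huh1 and raised 10 and lowered 3 in Huh7. Their median differences were 0.058 and 0.15. As background for this and the later lists, DSF raised 26.4% of all tested genes in Huh1 and 29.1% in Huh7. The shares lowered were 26.3% and 24.1%. Whether the counts of a list differ from these shares was not tested. PLAA, a VCP cofactor that binds ubiquitin, rose by 0.72 ± 0.069 and 0.62 ± 0.069, while ATXN3, a deubiquitinase, fell by 0.41 ± 0.098 and 0.84 ± 0.098 and UBE4B, a chain-extending ligase, by 0.75 ± 0.078 and 0.38 ± 0.078. UFD1, the partner of NPLOC4, gave 0.049 (adjusted p = 0.597) in Huh1 and 0.41 (adjusted p = 0.000209) in Huh7. It is named for that partnership and was chosen after its values were seen.

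Among 25 genes of ER-associated degradation, DSF raised 11 and lowered 5 in Huh1, against 13 and 9 in Huh7, with medians of 0.16 and 0.25. HERPUD1, an ER membrane protein induced by ER stress, rose by 1.55 ± 0.11 in Huh1 and 0.34 ± 0.11 (adjusted p = 0.0202) in Huh7, GET4, a partner of BAG6, by 0.74 ± 0.13 and 0.58 ± 0.13, and SEL1L, the scaffold of the HRD ligase, by 0.58 ± 0.071 in each line. After 5-FU, on the 75th percentile scale, HERPUD1 gave -0.077 in Huh1 and -0.99 in Huh7. GET4 gave 1 and 0.91, and SEL1L gave -0.07 and -0.38.

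The list of autophagy receptors and ATG8 proteins also held genes of other kinds, such as KEAP1 and TRAF6. Of its 14 tested genes, 7 rose and 0 fell in Huh1, and 7 rose and 2 fell in Huh7, with medians of 0.28 and 0.24. Among the receptors, to which SQSTM1 belongs, CALCOCO2 gave -0.089 in Huh1 and -0.48 in Huh7, and CALCOCO1 0.67 and -0.31. OPTN gave 0.36 and -0.25, TAX1BP1 0.16 and 0.31, and TOLLIP 0.18 and 0.43. None of these receptors passed in the same direction in both lines, and NBR1 was not tested. MAP1LC3B, which coats autophagosomes and binds SQSTM1, rose by 2.13 ± 0.11 and 0.9 ± 0.11, MAP1LC3A by 0.77 ± 0.2 and 1.04 ± 0.2, and TRAF6, a ligase that SQSTM1 binds, by 0.59 ± 0.067 and 0.92 ± 0.067. Among 11 genes of NFE2L1 processing and partners, 5 rose and 2 fell in Huh1, and 6 rose and 2 fell in Huh7 (medians 0.15 and 0.31). The small MAF proteins, which pair with NFE2L1 on DNA, led this list, with MAFF at 3.74 ± 0.2 and 1.24 ± 0.2, MAFK at 1.7 ± 0.17 and 0.82 ± 0.17, and MAFG at 0.59 ± 0.084 and 0.5 ± 0.084.

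Of 13 chaperone partners of STUB1 and BAG proteins, 5 rose and 5 fell in Huh1 while 11 rose and 1 fell in Huh7, with medians of 0.044 and 0.52. BAG3, the co-chaperone of selective autophagy, rose by 0.7 ± 0.053 and 1.25 ± 0.053, and DNAJB2, a ubiquitin-binding co-chaperone, by 0.67 ± 0.054 and 0.88 ± 0.054. ATXN3, which also stands in this list, gave -0.41 ± 0.098 and -0.84 ± 0.098. Of 15 ubiquitin shuttles and recycling enzymes, 4 rose and 5 fell in Huh1, and 10 rose and 1 fell in Huh7 (medians -0.071 and 0.32). In that list UCHL1, a deubiquitinase, rose by 1.37 ± 0.17 and 0.61 ± 0.17, ADRM1, a ubiquitin receptor of the proteasome, by 0.33 ± 0.095 and 1.14 ± 0.095, and UBQLN1, a shuttle, by 0.41 ± 0.078 and 0.75 ± 0.078.

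The 12 ubiquitin genes and activating or conjugating enzymes had 4 that rose and 4 that fell in Huh1, and 5 and 2 in Huh7, with medians of 0.054 and 0.15, and UBE2D1, an enzyme that works with STUB1, rose by 0.59 ± 0.061 and 0.51 ± 0.061, UBE2D2 rose by 0.14 ± 0.048 (adjusted p = 0.0247) and 0.28 ± 0.048, and UBE2R2 fell by 0.53 ± 0.063 and 0.47 ± 0.063. Of the 5 other ZFAND genes, 3 rose and 0 fell in Huh1 while 1 rose and 2 fell in Huh7, with medians of 0.34 and -0.27. ZFAND2B, the closest relative of ZFAND2A, rose by 0.68 ± 0.1 and 0.59 ± 0.1. Some genes stand in more than 1 list. The medians over all tested genes were -0.021 in Huh1 and 0.038 in Huh7, and the shares called those given above for all genes. Under median scaling the Huh1 medians of the VCP adaptors (-0.11), ER-associated degradation (-0.013), ubiquitin genes (-0.12), NFE2L1 partners (-0.021) and STUB1 partners (-0.13) turned negative, and under spike-in scaling the Huh7 medians of the VCP adaptors and of the ubiquitin genes did (-0.028 each) while that of the shuttles in Huh1 turned to 0.063. Of the genes named as passing in both lines, UBE2D2 in Huh1 (0.14) lay closer to 0 than the shift of -0.17 that median scaling gave there. UFD1 (0.049), CALCOCO2 (-0.089) and TAX1BP1 (0.16), which had not passed in Huh1, also did.

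**Figure D4:**
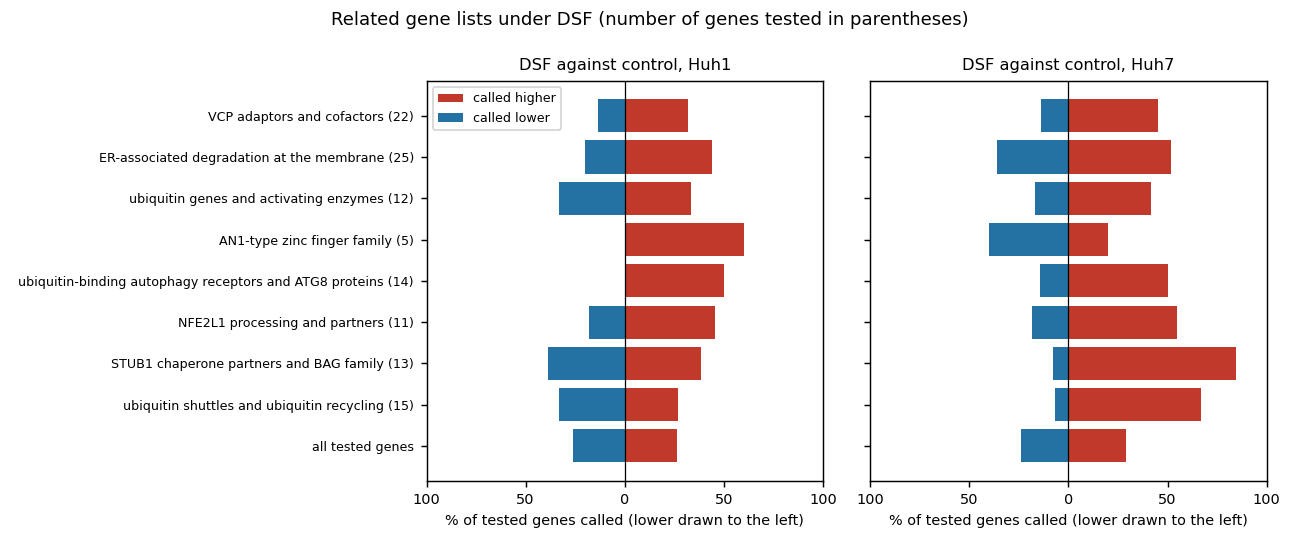
Percent of each related list's tested genes called higher (right of 0) or lower (left of 0) after DSF (x axis) in Huh1 and Huh7, with all tested genes in the last row. In Huh7, 11 of 13 STUB1 partners and 10 of 15 shuttles were called higher, against 29.1% of all tested genes.

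After 5-FU, relative to the bulk of the probes, 0 of 15 shuttles and recycling enzymes were higher and 9 lower in Huh1, and 3 of 13 STUB1 partners were higher and 8 lower, beside 25.9% and 29.1% of all genes. In Huh7 the counts were 4 higher and 5 lower for the shuttles (median 0.032) and 5 higher and 4 lower for the STUB1 partners (median 0.027), beside 32.5% and 31% of all genes. The median differences in Huh1 were -0.23 and -0.27, and 0.59 and 0.55 with spike-in scaling, so these directions follow the scaling. ATXN3 fell by 0.81 and 1.66, BAG3 gave -0.08 (adjusted p = 0.232) and 0.29 (adjusted p = 0.000252), and MAP1LC3B rose by 0.95 and 0.81.

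**Figure D5:**
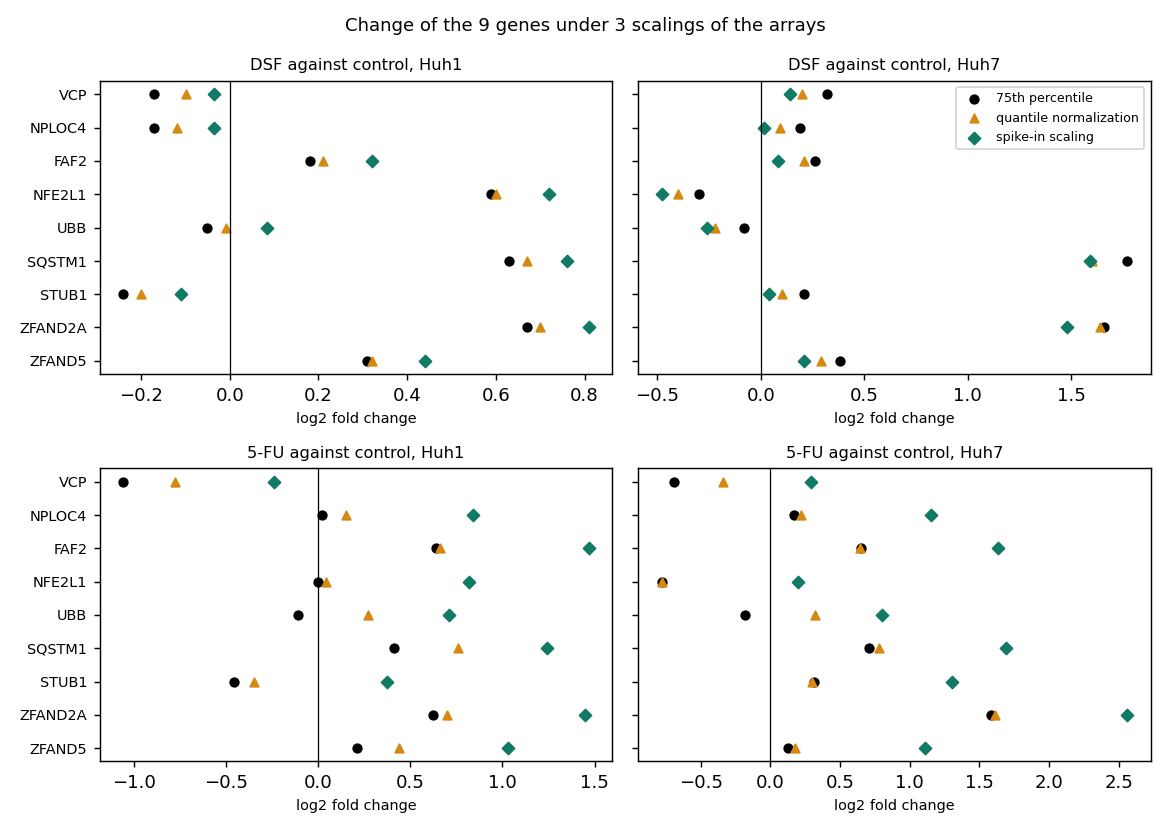
Log2 fold change (x axis) of the 9 genes in 4 comparisons with the control, under scaling to the 75th percentile (circles), by quantile normalization (triangles) and spike-in scaling (diamonds). SQSTM1, ZFAND2A, FAF2 and ZFAND5 stay right of 0 in all 4 panels under the 3 scalings, though not every FAF2 and ZFAND5 value passed the threshold. In the 5-FU panels spike-in scaling moves each gene to the right of its 75th percentile value by 0.83 in Huh1 and 0.98 in Huh7.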

How the data were processed

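RNA of EpCAM+ cells sorted from Huh1 and Huh7 was hybridised to 1-colour Agilent arrays, 18 in all. The intensities analysed were the deposited processed signals, which the authors' Feature Extraction software (10.7.1.1 in the submitters' notes) had corrected for background. The deposited value table of the authors holds linear ratios to the array's 75th percentile (column medians 0.0675 to 0.0824, 100% of probes within 0.05 log2 of the scaled signals), uncentred over genes, and was used only as an alternative. Every column belonged to a sample of this series.

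Control and outlier spots were left out and spots of a probe averaged, and each array was scaled to its 75th percentile on the log2 scale. Of 42405 probes, 29894 passed the filter on dim probes, and 15852 genes were represented by their brightest probe. Groups were taken from the labels and described by the submitters as triplicates of independent experiments. Limma (3.58.1, R 4.3.3) was fitted over all 6 groups with a common variance, and p-values were adjusted by Benjamini-Hochberg over all probes tested. Python 3.11.15 drew the figures. The fit was tested on simulated data. The number of arrays limits the precision, since an exact test of 3 against 3 cannot go below p = 0.1.

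The genes and the related lists were chosen with earlier results of these data known. In each list the genes named are up to 3 that passed in both lines in the same direction, those with the largest mean absolute change under DSF, and for each of the 9 genes the 2 most alike were named by Pearson's r. UFD1 and the autophagy receptors CALCOCO2, CALCOCO1, OPTN, TAX1BP1 and TOLLIP were named outside this rule. Alternatives covered the background correction, scaling, probe filters, probe summary, slides, replicate block, variance model, the study's selection rule and the omission of each array. Replicate numbers came from the labels. Arrays with the same number had correlated deviations from their group means in only 1 of 45 pairs (r over 0.1, median -0.0252), so the numbers were not taken as pairs. Promoter windows came from a RefSeq table on GRCh38.p14.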

Additional observations from a re-analysis of the deposited data

Results flagged for a closer look

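The effect of DSF differed between the lines, by a test of the difference itself, for 6 of the 9 genes. As log2 effect in Huh7 minus that in Huh1, the differences were 1.14 for SQSTM1, 0.98 for ZFAND2A, 0.49 for VCP, 0.45 for STUB1, 0.36 for NPLOC4 and -0.89 for NFE2L1. With spike-in scaling the values for SQSTM1 (0.83), ZFAND2A (0.67) and NFE2L1 (-1.21) still passed, and those for VCP (0.18), STUB1 (0.14) and NPLOC4 (0.05) did not. With slide 3 left out, NPLOC4 also missed the threshold (0.32, adjusted p = 0.0545).

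The effect of 5-FU differed between the lines for 5 genes, by 0.96 for ZFAND2A, 0.77 for STUB1, 0.37 for VCP, 0.3 for SQSTM1 and -0.78 for NFE2L1. With spike-in scaling ZFAND2A (1.12), STUB1 (0.93) and NFE2L1 (-0.63) still passed, while VCP (0.52, adjusted p = 0.052) and SQSTM1 (0.45, adjusted p = 0.141) did not. Under quantile normalization the SQSTM1 value was 0.021 (adjusted p = 0.898).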

How the results depend on the processing

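Of 71 changes of a probe of the 9 genes that passed the threshold, 35 passed in the same direction under every other setting and every omission of an array. Spike-in scaling moved most, and the cause was not tested. It gave 0 lower under DSF in Huh1, 2 higher under DSF in Huh7, 8 higher and 0 lower under 5-FU in Huh1, 0 lower under 5-FU in Huh7, 0 higher and 7 lower for DSF against 5-FU in each line, and 2 more positive in Huh7 for each drug. It turned UBB under DSF in Huh1 (0.083), NFE2L1, UBB and STUB1 under 5-FU in Huh1 (0.82, 0.71, 0.37) and VCP, NFE2L1 and UBB in Huh7 (0.29, 0.2, 0.8). For DSF against 5-FU it turned NFE2L1, UBB, SQSTM1, STUB1, ZFAND2A and ZFAND5 in Huh1 (-0.098, -0.63, -0.48, -0.48, -0.64, -0.59) and VCP, NPLOC4, NFE2L1, UBB, SQSTM1, ZFAND2A, ZFAND5 and its probe A_24_P278172 in Huh7 (-0.14, -1.14, -0.68, -1.06, -0.1, -1.08, -0.91, -0.028). Between the lines it turned FAF2, ZFAND5 and probe A_24_P290354 for DSF (-0.23, -0.23, -0.15) and UBB, ZFAND5 and that probe for 5-FU (0.09, 0.08, 0.033).

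Quantile normalization gave 5 higher and 1 lower under DSF in Huh1, 4 and 2 in Huh7, 5 higher under 5-FU in Huh1, 3 lower for DSF against 5-FU in Huh7 and 2 more negative in Huh7 for DSF. It turned NFE2L1 (0.041) and UBB (0.27) under 5-FU in Huh1, UBB in Huh7 (0.32), UBB, SQSTM1 and ZFAND5 for DSF against 5-FU in Huh1 (-0.28, -0.093, -0.11), NPLOC4 and UBB in Huh7 (-0.13, -0.55), and between the lines FAF2 and ZFAND5 for DSF (-0.0025, -0.038) and FAF2 and UBB for 5-FU (-0.021, 0.05). Median scaling gave 3 higher under DSF in Huh7 and 2 higher for DSF against 5-FU in Huh1, and turned NPLOC4 under 5-FU in Huh1 (-0.0049), UBB, ZFAND2A and ZFAND5 for DSF against 5-FU in Huh1 (-0.087, -0.094, -0.053), NPLOC4 in Huh7 (-0.026), and UBB and probe A_24_P278172 between the lines for DSF (0.12, 0.13). The percentile over probes well above background gave 5 higher under DSF in Huh1 and turned NFE2L1 under 5-FU in Huh1 (0.0031) and NPLOC4 for DSF against 5-FU in Huh7 (-0.0083). Normexp gave 2 lower for DSF against 5-FU in Huh7 and turned NFE2L1 under 5-FU in Huh1 (0.014) and FAF2 between the lines for 5-FU (-0.013).

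Slide as a fixed block gave 1 lower under DSF in Huh1, 4 higher and 0 lower in Huh7, 1 lower for DSF against 5-FU in Huh1, and 1 higher in Huh7 control than in Huh1 control. Within slide 1 there was 1 lower under DSF, and 2 higher and 1 lower against 5-FU. Within slide 2 there were 3 higher and 0 lower under DSF and 0 lower against 5-FU. Leaving out slide 3, chosen after seeing the data as were all settings for the controls of the lines, gave 4 higher and 0 lower under DSF in Huh7. NPLOC4 for DSF against 5-FU in Huh7 was -0.024 in these 3 fits (slide block, slide 2, slide 3 left out), and probe A_24_P278172 between the lines for DSF 0.023 with the slide block and 0.051 without slide 3. Without the filter on dim probes 1 was lower under DSF in Huh1. The groups of the comparison alone gave 5 higher under DSF in Huh1 and 1 lower against 5-FU there, and the study's selection rule 1 lower in each of these. The mean over the probes of a gene raised the DSF changes of ZFAND5 to 1.07 and 1.14.

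Leaving out each array gave 3 to 3 higher and 1 to 2 lower under DSF in Huh1, 4 to 7 and 1 to 1 in Huh7, 3 to 3 and 2 to 3 under 5-FU in Huh1, 4 to 5 and 3 to 3 in Huh7, 3 to 4 and 1 to 2 for DSF against 5-FU in Huh1, 3 to 4 and 1 to 1 in Huh7. Between the lines it gave 5 to 5 and 1 to 1 for DSF, 3 to 4 and 1 to 1 for 5-FU, and 3 to 3 and 6 to 6 for the controls. Values near 0 that changed sign were FAF2 (-0.092 to 0.059) and ZFAND5 (-0.18 to 0.025) between the lines for 5-FU, NFE2L1 (-0.037 to 0.061) and NPLOC4 (-0.032 to 0.088) under 5-FU in Huh1, NPLOC4 (-0.021 to 0.047) and ZFAND2A (-0.016 to 0.15) for DSF against 5-FU in Huh7, ZFAND2A (-0.015 to 0.092) and ZFAND5 (-0.0071 to 0.17) in Huh1, and UBB (-0.054 to 0.0061), ZFAND5 (-0.067 to 0.15) and probe A_24_P278172 (-0.067 to 0.008) between the lines for DSF.

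With the replicate number as a block, NPLOC4 under DSF in Huh1 missed the threshold (-0.17, adjusted p = 0.054), and the block changed no other call among 99 results. The samples share only a number, and most pairs' correlations lay near 0 (-0.0932 to 0.103).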
